A study of Mus musculus with 6 samples.

Results

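The 10 genes described here encode cell-cell adhesion proteins, most of them known from epithelia. These are the cadherins Cdh1, Cdh2 and Cdh3, the surface protein Epcam and the junctional adhesion molecule F11r. The others are the tight junction proteins Cldn3, Cldn4, Cldn6, Cldn7 and Ocln. All 10 were chosen by name, as a family, from the 37620 genes counted in each library, and each symbol matched 1 Ensembl identifier. All 10 passed the filter on low counts and were among the 17489 genes tested. RNA was sequenced from 6 libraries of mouse cells, 2 in each of 3 groups. The ESC group is wild-type J1 embryonic stem cells, grown with LIF and serum on mitomycin-C-inactivated fibroblast feeders that were depleted before use. The NPC group is wild-type neural progenitor cells obtained in vitro from J1 ESC. The third group comes from J1 ESC with the genotype Phc1-/-, Phc1 being a Polycomb repressive complex 1 subunit, and Phc1-KO stands below for the libraries labelled so. The sources used here do not say which part of Phc1 was removed, whether the Phc1-/- cells are 1 clone, or whether libraries of a group come from separate cultures. P-values therefore measure only the spread between these libraries, which may be technical.

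Classical cadherins join neighbouring cells through their extracellular domains and hold the actin cytoskeleton through catenins at adherens junctions. Claudins and occludin form the tight junction strands that seal the space between epithelial cells, and junctional adhesion molecules sit beside them. Stem cell colonies of the mouse are epithelial and carry E-cadherin, whereas neuroepithelium and its progenitors are known for N-cadherin. The exchange of one for the other is called the cadherin switch.

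In the mm9 genome (GENCODE M1 gene models, the build of the counts), Cdh1 (ENSMUSG00000000303) lies at chr8:109127251-109194146 on the plus strand. Cdh3 (ENSMUSG00000061048, chr8:109034791-109080808, plus strand) is its neighbour, 46442 bases away with 1 protein-coding gene between them. Cldn3 (ENSMUSG00000070473, chr5:135462084-135463342, plus strand) and Cldn4 (ENSMUSG00000047501, chr5:135420996-135422804, minus strand) lie 39279 bases apart with 0 protein-coding genes between them. Cdh2 (ENSMUSG00000024304) spans chr18:16747386-16967755 on the minus strand, Epcam (ENSMUSG00000045394) chr17:88035319-88050446 on the plus strand, and Cldn6 (ENSMUSG00000023906) chr17:23816332-23819413 on the plus strand. Cldn7 (ENSMUSG00000018569) spans chr11:69778281-69781387 on the plus strand, Ocln (ENSMUSG00000021638) chr13:101266462-101322673 on the minus strand, and F11r (ENSMUSG00000038235) chr1:173367666-173394734 on the plus strand. Cldn3 shares 40 of its 1259 exon bases with Wbscr25 on the other strand. Reads of the 2 genes cannot be told apart there without a stated strand setting. The other genes share 0 exon bases with any other gene that was counted.

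Gene counts ranged from 15226214 to 21893821 per library, and reads that fell outside annotated genes numbered 0.661 to 1.09 per gene read, with the Phc1-KO libraries far apart (1.08 and 0.661). Phc1 itself stood at 460 and 461 CPM (counts per 1000000 gene counts, on library sizes scaled by TMM) in ESC, 40.8 and 34.6 in NPC, and 326 and 267 in Phc1-KO. A gene-level count does not show which part of the transcript remained, so it does not check the knockout label. The label's cell type entry for Phc1-KO reads NPC, while the study's title calls the cells ESC. The summed level of 8 stem cell identity genes was 2254 and 2266 CPM in ESC, 2283 and 2759 CPM in Phc1-KO, and 7.04 and 7.40 CPM in NPC. The summed level of 8 neural progenitor genes was 3737 and 1706 CPM in NPC, 203 and 183 CPM in Phc1-KO, and 208 and 219 CPM in ESC. The ESC pair stood close to counting noise: the median chi-square per gene was 0.557 between these libraries, where counting noise alone gives 0.455. The same median was 4.80 between the NPC libraries and 4.21 between those of Phc1-KO. Calls of the 10 genes against ESC are therefore also given with the ESC pair counted as 1 library where that changes them.

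Promoter letters are shown because the Snail and Zeb families of repressors, known for acting on E-cadherin and other junction genes, bind E-boxes with the core CACCTG. RefSeq promoter windows of 300 bases (250 before the start and 50 after it, GRCm38.p6) were given for 7 of the 10 genes, with the exception of Cdh1, Cdh2 and Cdh3. CACCTG was searched on both strands, so its reverse complement CAGGTG counts as a match, and no other motif was searched. All 7 genes held at least 1 match, and 5 (Epcam, Cldn4, Cldn6, Cldn7 and Ocln) held 2 in 1 window. Among all 27025 genes with a window, 22.6% held a match in any window and 3.32% held 2 or more in 1 window; of all 32851 windows 20.2% held a match. Windows of 4 of the genes with 2 matches follow, 5′ to 3′ on the gene's strand with the matches in capitals: Epcam at chr17:87635729-87636028 (plus), Cldn4 at chr5:134946885-134947184 (minus), Cldn6 at chr17:23679115-23679414 (plus) and the second of the Cldn7 windows at chr11:69965171-69965470 (plus).
Epcam: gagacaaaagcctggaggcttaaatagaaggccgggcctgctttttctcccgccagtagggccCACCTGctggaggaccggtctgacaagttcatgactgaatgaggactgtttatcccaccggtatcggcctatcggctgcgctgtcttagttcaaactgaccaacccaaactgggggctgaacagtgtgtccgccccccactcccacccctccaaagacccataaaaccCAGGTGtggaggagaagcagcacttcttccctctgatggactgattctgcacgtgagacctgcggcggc
Cldn4: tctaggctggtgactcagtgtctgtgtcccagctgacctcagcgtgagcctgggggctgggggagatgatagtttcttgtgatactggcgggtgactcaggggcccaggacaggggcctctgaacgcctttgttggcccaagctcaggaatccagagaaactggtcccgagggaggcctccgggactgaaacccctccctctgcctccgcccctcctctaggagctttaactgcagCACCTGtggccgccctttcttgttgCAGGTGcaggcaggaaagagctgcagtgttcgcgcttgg
Cldn6: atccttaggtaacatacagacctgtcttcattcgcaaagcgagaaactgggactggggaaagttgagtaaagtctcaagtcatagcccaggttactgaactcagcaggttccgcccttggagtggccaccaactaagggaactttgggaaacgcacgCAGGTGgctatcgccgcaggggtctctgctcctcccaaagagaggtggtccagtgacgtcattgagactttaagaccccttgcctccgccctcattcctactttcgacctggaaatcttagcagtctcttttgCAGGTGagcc
Cldn7: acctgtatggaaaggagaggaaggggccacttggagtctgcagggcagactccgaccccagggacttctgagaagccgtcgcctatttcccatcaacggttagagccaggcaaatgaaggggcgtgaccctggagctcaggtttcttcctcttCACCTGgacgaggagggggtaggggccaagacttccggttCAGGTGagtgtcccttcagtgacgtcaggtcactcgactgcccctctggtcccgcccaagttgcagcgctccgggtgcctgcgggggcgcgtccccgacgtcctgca
The matches begin 187 and 19 bases before the start in Epcam, 14 before and 11 after it in Cldn4, 93 before and 40 after it in Cldn6, and 97 and 57 before it in Cldn7. The letters at the end of the Cldn6 window, around its second match, were not found in the gene's GENCODE transcripts. Those at the end of all other windows of the 7 genes were found. In the remaining genes a match begins 122 bases before the start of F11r and 31 after that of Cldn3, and Ocln has overlapping windows. These are matches of letters, not measured binding sites, and no binding was measured in these libraries. Whether these repressors act on the 10 genes was not tested.

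The first comparison asks how the adhesion genes differ between progenitors and the stem cells they were derived from. In NPC against ESC, 9 of the 10 genes fell and 1, Cdh2, rose. Of all genes tested, 30.9% were lower and 30.4% were higher by the same rule (edgeR's quasi-likelihood test, Benjamini-Hochberg adjusted p under 0.05). The median log2 fold change over the 10 genes was -7.26, beside -0.01 over all genes tested. No call for the 10 genes in this comparison changed under any of the 16 alternatives run.

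**Figure D1:**
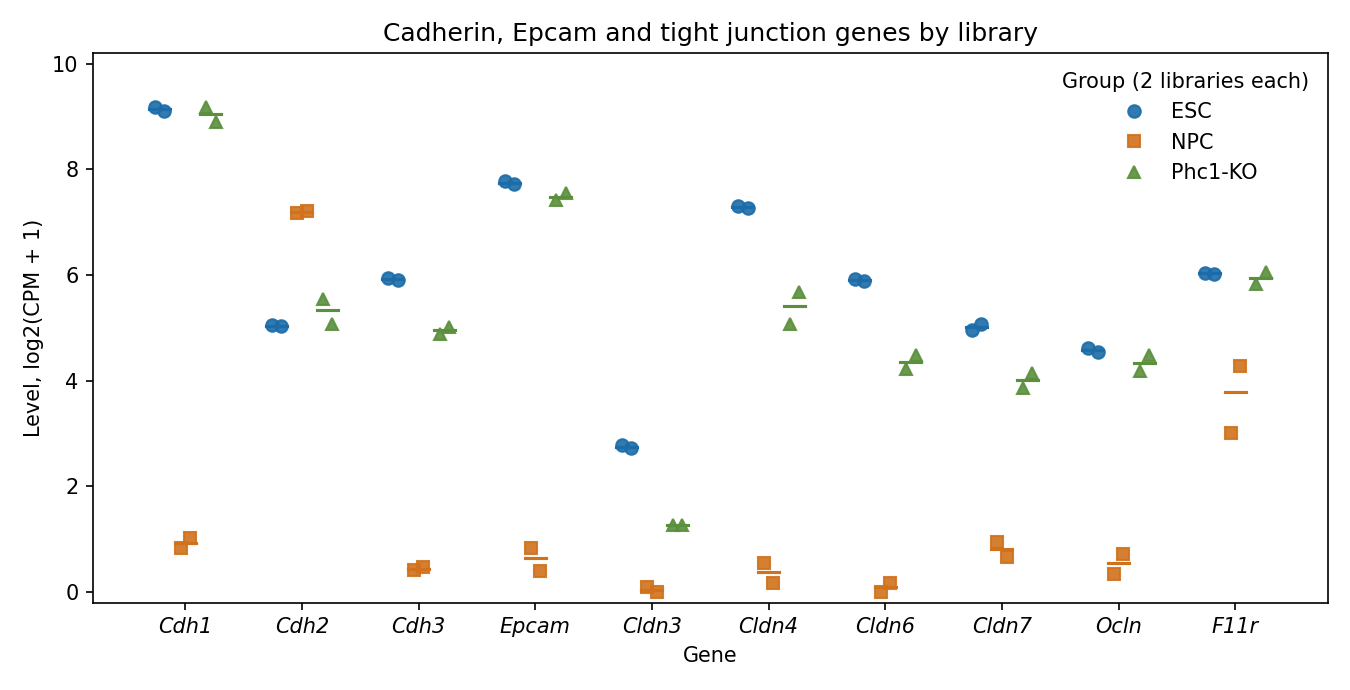
RNA level of each of the 10 genes in each library (vertical axis, log2(CPM + 1); each point is 1 library, circles ESC, squares NPC, triangles Phc1-KO; horizontal lines, group means). In 9 genes both NPC points lie below all other points, and in Cdh2 both lie above them (143.9 and 147 CPM against 31.6 to 45.98).

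Cdh1, E-cadherin, the main cadherin of epithelial adherens junctions, stood at 576 and 545 CPM in ESC, 0.789 and 1.04 CPM in NPC, and 577 and 473 CPM in Phc1-KO. Both NPC libraries were far below all others, and the ESC and Phc1-KO libraries overlapped. The NPC change was -9.25 on the log2 scale (SE 0.23; edgeR, Benjamini-Hochberg adjusted p = 4.62e-06), with 28 counts behind both NPC values together. This SE and those below are approximate values derived from the test statistic, and can be too small where a group holds few counts. Cdh2, N-cadherin, the cadherin of neural tissue and mesenchyme, stood at 32.1 and 31.6 CPM in ESC, 143.9 and 147 CPM in NPC, and 45.98 and 32.7 CPM in Phc1-KO. The NPC libraries were the high ones and close to each other, and both Phc1-KO libraries lay above both ESC libraries, Phc1-KO 2 only just. Its NPC change was 2.19 (SE 0.18; edgeR, Benjamini-Hochberg adjusted p = 0.000106). Cdh3, P-cadherin, a classical cadherin of placenta and epithelia, stood at 60.8 and 58.9 CPM in ESC, 0.329 and 0.390 CPM in NPC, and 28.3 and 31.5 CPM in Phc1-KO. The 3 groups did not overlap, with Phc1-KO in between. The NPC change was -7.35 (SE 0.23; edgeR, Benjamini-Hochberg adjusted p = 5.45e-06).

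The switch can be read as a ratio per exon length. Cdh1 exceeded Cdh2 by 31.7 and 30.5 times in the ESC libraries and by 22.1 and 25.5 times in the Phc1-KO libraries, whereas Cdh2 exceeded Cdh1 by 103.4 and 80.2 times in the NPC libraries. On the log2 scale the ratio of Cdh2 to Cdh1 was -4.96 ± 0.04 in ESC, 6.51 ± 0.26 in NPC and -4.57 ± 0.15 in Phc1-KO (SD, n = 2 each). The ratio turned over in both NPC libraries and in neither Phc1-KO library. NPC lay 11.47 above ESC and Phc1-KO 0.39 above ESC, in groups that did not overlap; the exact two-sided permutation test gave p = 0.333 for both, the smallest p that 2 libraries against 2 allow.

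**Figure D2:**
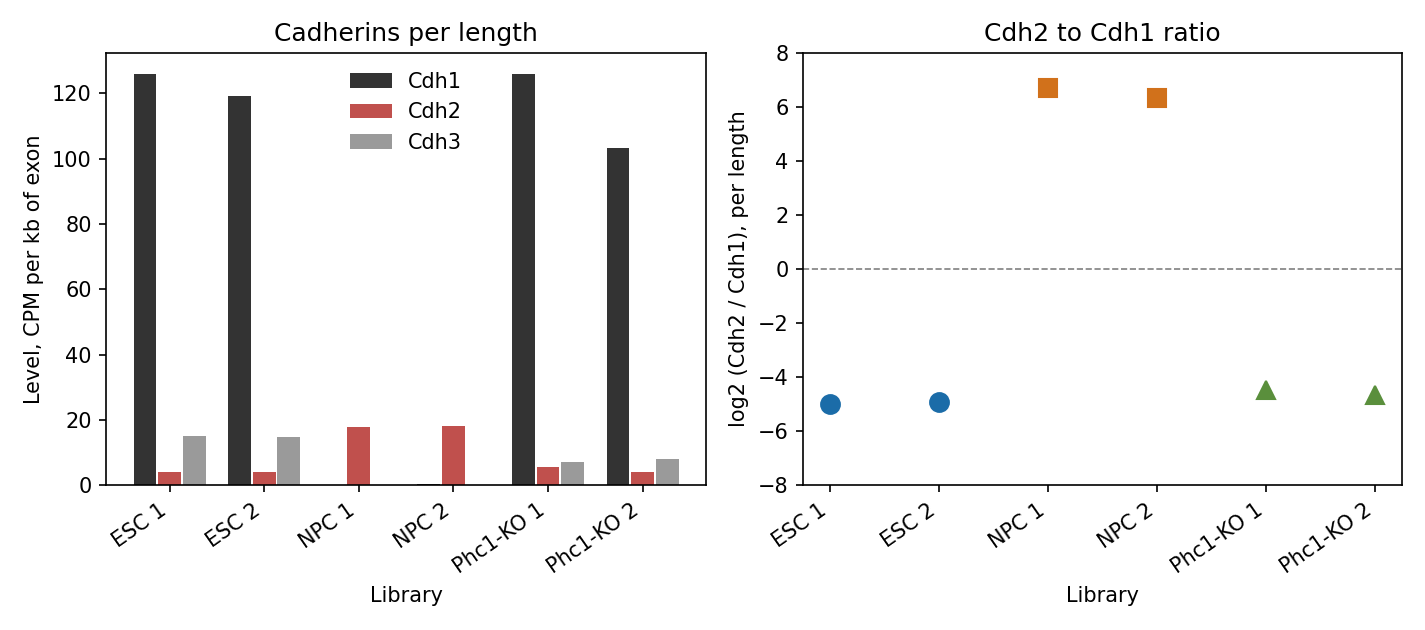
Level of Cdh1, Cdh2 and Cdh3 per kilobase of exon in each library (left, bars, CPM per kilobase), and the log2 ratio of Cdh2 to Cdh1 per exon length (right, 1 point per library). The ratio lies between -4.99 and -4.47 in ESC and Phc1-KO and at 6.33 and 6.69 in NPC.

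Epcam, an epithelial surface adhesion protein of stem cells and simple epithelia, stood at 217.9 and 210.1 CPM in ESC, 0.789 and 0.325 CPM in NPC, and 170.2 and 185.6 CPM in Phc1-KO. NPC was low in both libraries, and the Phc1-KO libraries lay below the ESC libraries without overlap. Its NPC change was -8.57 (SE 0.28; edgeR, Benjamini-Hochberg adjusted p = 6.13e-06), and -9.33 without NPC 1.

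Among the claudins, Cldn4, a barrier claudin of many epithelia, stood at 156 and 153.8 CPM in ESC, 0.460 and 0.130 CPM in NPC, and 32.6 and 50.02 CPM in Phc1-KO. The groups kept the order ESC, Phc1-KO, NPC without overlap. Its NPC change was -9.01 (SE 0.41; edgeR, Benjamini-Hochberg adjusted p = 1.21e-05), -10.14 without NPC 1 and -8.37 without NPC 2. Cldn6, a claudin of embryonic epithelia and stem cells, stood at 59.8 and 58.4 CPM in ESC, 0 and 0.130 CPM in NPC, and 17.6 and 21.5 CPM in Phc1-KO. The order of the groups was that of Cldn4. Since NPC held 2 counts of Cldn6 in all, the fold is given as a ratio of counts scaled for library size: 904 times less than in ESC, with a 95% counting interval of 249.9 to 7471.

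Cldn3, the neighbour of Cldn4 on chromosome 5, was the lowest of the 4 claudins at 5.86 and 5.60 CPM in ESC, 0.0658 and 0 CPM in NPC, and 1.41 and 1.40 CPM in Phc1-KO. With 1 count in NPC against 187 in ESC, the ratio was 175 (95% counting interval 31.1 to 6960). Cldn7, a claudin also known for binding Epcam, stood at 30.04 and 32.6 CPM in ESC, 0.921 and 0.584 CPM in NPC, and 13.6 and 16.6 CPM in Phc1-KO. Both claudins had non-overlapping groups with Phc1-KO in the middle. The NPC change of Cldn7 was -5.37 (SE 0.28; edgeR, Benjamini-Hochberg adjusted p = 1.93e-05).

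Ocln, occludin, the first transmembrane protein described at the tight junction, stood at 23.6 and 22.3 CPM in ESC, 0.263 and 0.649 CPM in NPC, and 17.2 and 21.4 CPM in Phc1-KO. NPC was low in both libraries, and ESC and Phc1-KO lay close together without overlap. The NPC change was -5.63 (SE 0.36; edgeR, Benjamini-Hochberg adjusted p = 3.56e-05), and -6.40 without NPC 2. F11r, junctional adhesion molecule A, which is also found on endothelium and blood cells, stood at 64.9 and 63.996 CPM in ESC, 7.10 and 18.4 CPM in NPC, and 55.9 and 65.5 CPM in Phc1-KO. It kept more of its level in NPC than the other genes that fell, the NPC libraries differed from each other, and ESC overlapped Phc1-KO. Its change was -2.34 (SE 0.39; edgeR, Benjamini-Hochberg adjusted p = 0.00183), and -3.18 without NPC 2.

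Read per exon length, the order of the genes also differed. In ESC it ran from Cdh1 (123 CPM per kilobase) through Epcam (104.9), Cldn4 (85.7), Cldn6 (39.2), F11r (24.2), Cldn7 (16.1), Cdh3 (14.98), Ocln (5.43) and Cldn3 (4.55) to Cdh2 (3.95), and no neighbours in that order overlapped. Cdh2 was last in ESC and first in NPC, where it reached 18.03 CPM per kilobase and F11r came next at 4.78. Below F11r, Cldn7 was at 0.386 and the other 7 genes at 0.273 or less, and all neighbours from Cldn7 down overlapped. Cdh2 made up 74.8% of the summed level per length of the 10 genes in NPC, 0.936% in ESC and 1.70% in Phc1-KO. In Phc1-KO the order began with Cdh1 (114.7) and Epcam (87.2), and Cldn4 and F11r (both 22.8) overlapped.

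Markers of other cell types moved in the same comparison. Of 12 fibroblast genes, 8 were higher and 2 lower in NPC, and they summed to 7218 and 11469 CPM in NPC against 671 and 652 CPM in ESC, with none of the 12 at 0 in any library. Fibroblasts also carry Cdh2, and whether such cells were present or had a part in its rise was not tested. Cdh2 stood at 143.9 and 147 CPM in the same NPC 1 and NPC 2. In these bulk samples fewer cells of a type and less RNA per cell cannot be told apart.

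The second comparison asks what differs in Phc1-KO, whose cells the study's title calls ESC. Against ESC, 5 of the 10 genes fell: Cdh3 and the claudins Cldn3, Cldn4, Cldn6 and Cldn7. In the fit of all 6 libraries none rose by edgeR and none was higher at an unadjusted p under 0.05. DESeq2 and limma-voom also called 0 higher. Of all genes tested, 5.75% were lower and 4.91% were higher. The median log2 fold change was -0.63 over the 10 genes and 0.00067 over all genes tested, and 9 of the 10 changes were negative.

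The 5 calls rest on counting the ESC pair as 2 libraries, and so do most calls over all genes in this comparison. The loss of calls is thus not particular to these genes. With that pair as 1 library the log2 changes of the 5 genes hardly moved. They were -0.99976 for Cdh3, -2.02 for Cldn3, -1.91 for Cldn4, -1.59 for Cldn6 and -1.05 for Cldn7. With that pair as 1 library, 0 of the 5 passed, at adjusted p of 0.155 for Cdh3, 0.115 for Cldn3, 0.0628 for Cldn4, 0.102 for Cldn6 and 0.218 for Cldn7 (edgeR, Benjamini-Hochberg). None of the 5 passed without ESC 1, without ESC 2 or without Phc1-KO 2, and 2 (Cdh3 and Cldn4) passed without Phc1-KO 1; all 5 kept an unadjusted p under 0.05 in each of these fits.

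Cldn3 changed by -2.02 (SE 0.33, 95% interval -2.79 to -1.25; edgeR, Benjamini-Hochberg adjusted p = 0.0154), a gene with 56 counts in the Phc1-KO libraries together. Cldn4 changed by -1.91 (SE 0.25, interval -2.51 to -1.31; adjusted p = 0.00923) and Cldn6 by -1.59 (SE 0.24, interval -2.16 to -1.03; adjusted p = 0.0119). Cldn7 changed by -1.05 (SE 0.21, interval -1.55 to -0.56; adjusted p = 0.0270) and Cdh3 by -0.999 (SE 0.15, interval -1.35 to -0.65; adjusted p = 0.0120). In all 5 genes both Phc1-KO libraries lay below both ESC libraries. They also did so in Epcam and Ocln, which did not pass. The share of all tested genes that separate in this way was not computed. With ESC libraries so close to each other, such separation may be common. Here and in the descriptions of single genes above, a lack of overlap therefore describes the libraries and adds nothing to the calls. Over the alternatives run, the log2 change of Cldn4 ranged from -2.25 to -1.63 and that of Cdh3 from -1.09 to -0.92.

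The summed level of the 4 claudins per exon length was 146 and 145.005 CPM per kilobase in ESC and 37.9 and 51.5 in Phc1-KO, so the Phc1-KO mean was 30.7% of the ESC mean. In NPC the sum was 0.779 and 0.458. Cldn4 made up 59.1% and 58.6% of it in ESC and 47.6% and 53.6% in Phc1-KO, and remained the largest of the 4 there.

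The other 5 genes did not pass. Cdh1 differed by -0.10 (95% interval -0.44 to 0.25; edgeR, Benjamini-Hochberg adjusted p = 0.698), and its sign turned without Phc1-KO 2, to 0.043. Cdh2 differed by 0.30 (interval -0.12 to 0.73; adjusted p = 0.303) and Epcam by -0.27 (interval -0.68 to 0.15; adjusted p = 0.352), each in groups that did not overlap. The change of Cdh2 was 0.53 without Phc1-KO 2 and 0.043 without Phc1-KO 1. Ocln differed by -0.25 (interval -0.83 to 0.34; adjusted p = 0.548). F11r differed by -0.09 (interval -0.94 to 0.76; adjusted p = 0.899), and its sign turned without Phc1-KO 1, to 0.029. The interval was widest for F11r, and none of the 5 intervals excludes 0.

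**Figure D3:**
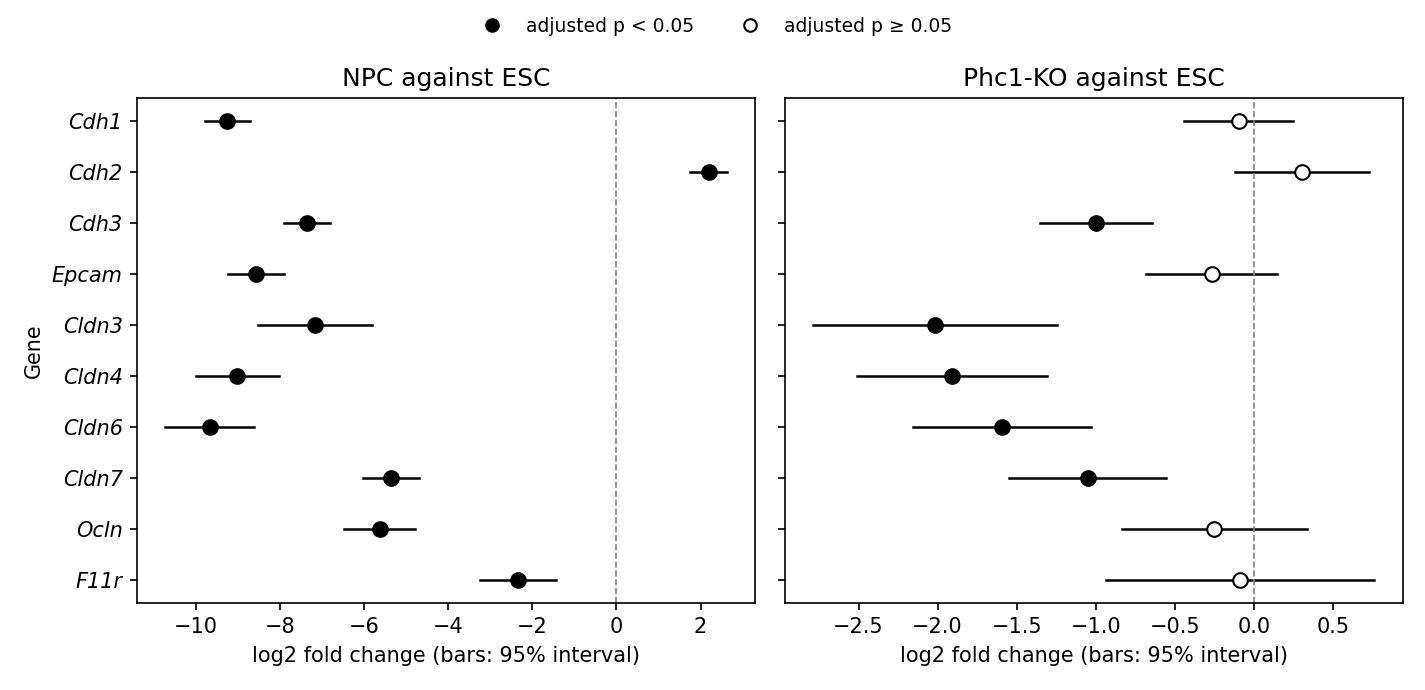
Log2 fold change of each of the 10 genes in NPC against ESC and in Phc1-KO against ESC (points, with approximate 95% intervals as bars; filled points passed edgeR's test at an adjusted p under 0.05). In NPC every gene but Cdh2 (2.19) lies left of 0, and in Phc1-KO the filled points are Cdh3 (-0.999) and the 4 claudins (-2.02 to -1.05).

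Some markers of other cell types differed in Phc1-KO too. Of 8 trophoblast genes 5 were lower (Cdx2, Krt7, Krt8, Krt18 and Krt19, of which the keratins are also those of simple epithelia), and the summed level was 264 and 266 CPM in ESC, 60.5 and 75.6 CPM in Phc1-KO, and 4.998 and 5.78 CPM in NPC, with 0 of the 8 genes at 0 in ESC and Phc1-KO. The 5 calls became 2 with the ESC pair as 1 library, without ESC 1 or without Phc1-KO 2, and 1 without ESC 2. Of 12 fibroblast genes 5 were higher in Phc1-KO, and the sum was 1478 and 1446 CPM there, against 671 and 652 CPM in ESC. These 5 calls became 4 with the ESC pair as 1 library, 3 without ESC 1, ESC 2 or Phc1-KO 2, and 9 without NPC 1 or NPC 2. Extraembryonic endoderm genes, 10 in all, summed to 73.3 and 51.6 CPM in Phc1-KO, beside 33.0 and 86.4 CPM in NPC and 34.3 and 34.8 CPM in ESC, and 1 of the 8 tested passed, as higher in Phc1-KO. Whether cells of these types were present, or had a part in the fall of the claudins and Cdh3, was not tested.

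Phc1-KO was also set against NPC, since the labels conflict. Of the 10 genes 9 were higher in Phc1-KO and Cdh2 was lower (log2 change -1.89), beside 32.3% of all tested genes higher and 32.7% lower. This comparison shares its libraries with the other comparisons and adds no independent evidence.

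Other genes of the junction were read from lists drawn up by role. Of all genes tested, 30.4% were higher and 30.9% lower in NPC, and 4.91% and 5.75% in Phc1-KO, each against ESC. In NPC the adherens junction core, the other claudins and the tight junction partners that rose had shares near these. Of 13 tested genes of the adherens junction core, 3 rose and 5 fell in NPC (median log2 change -0.03). The catenins Ctnna2 and Ctnnd2, both neural, rose by 5.02 and 4.85 and Vcl, vinculin, by 0.71, a call lost in 5 of the 16 alternatives (the ESC pair as 1 library, upper-quartile scaling, and without ESC 1, ESC 2 or NPC 2). Ctnna1, the epithelial alpha-catenin, fell by 0.74, the nectins Pvrl4 and Pvrl2 fell by 2.40 and 1.51, Mllt4, afadin, fell by 1.62 and Ctnnal1 fell by 1.03 (edgeR, Benjamini-Hochberg adjusted p under 0.05 in each). Ctnnb1, beta-catenin, was 902 ± 16.01 CPM in ESC, 884 ± 9.39 in NPC and 998 ± 108 in Phc1-KO (SD, n = 2 each) and did not pass in any of these comparisons. In Phc1-KO against ESC, Mllt4 was the only gene of this list that passed, at -0.49.

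Of 15 tested other cadherins 10 rose and 2 fell in NPC (median 1.68). Over the alternatives 7 to 10 rose, 8 with the ESC pair as 1 library, and 1 or 2 fell, with 1 in 8 of the 16 alternatives. Cdh20 and Cdh6, both cadherins of the developing nervous system, rose by 6.85 and 5.55. Cdh20 stood at 81.5 and 33.2 CPM in NPC and its change was 6.06 without NPC 1, and that of Cdh6 was 6.32 without ESC 2. Cdh19 was 200.03 times higher by counts (95% counting interval 55.0 to 1658), at 19.1 and 5.52 CPM in the NPC libraries. In Phc1-KO, Cdh19 was 24.2 times higher by counts (interval 6.41 to 205) and Cdh11, a mesenchymal cadherin, rose by 1.97; neither passed by limma-voom, and Cdh11 did not pass with total-count scaling. All 9 tested desmosome genes fell in NPC (median -3.65; 9 to 11 over the alternatives, which test more genes where the count is higher). Dsg2, a desmosomal cadherin, was 648 times less by counts (interval 222 to 3146), Pkp3 259 times less (interval 46.1 to 10255), and Dsp, desmoplakin, fell by 7.27. In Phc1-KO, 3 of the 9 fell: Dsp by 1.65, Dsc2 by 1.64 and Ppl, periplakin, by 1.31. That count was 4 by DESeq2 and by limma-voom, and 6 in the fit of only the groups compared and without NPC 1 or NPC 2.

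Of 20 tight junction partners, all of them tested, 11 fell and 6 rose in NPC (median -1.25). Marveld3, an occludin relative, was at least 97.2-fold lower, with 0 counts in NPC, and Ildr1 of tricellular junctions fell by 6.69 (its log2 change was -8.19 without NPC 1 and -5.96 without NPC 2) and Crb3, a polarity protein, by 6.45. Ildr2 rose by 5.05, Jam2 by 1.44 and the scaffold Magi3 by 1.43. In Phc1-KO, Tjp3 fell by 1.89, Ildr1 by 1.27 and Tjp1, ZO-1, by 0.68, while Cgnl1 rose by 1.14 and Ildr2 by 1.02 (not past the threshold by limma-voom). The count of 3 lower was 6 by DESeq2, 5 by limma-voom, 9 without NPC 1 or NPC 2, and 10 in the fit of only the groups compared. Of 8 tested other claudins (10 of 18 had too few counts), 3 rose and 2 fell in NPC: Cldn15 rose by 3.45, Cldn1 by 3.96 (not past the threshold by limma-voom) and Cldn10 by 1.05 (lost in 11 of the 16 alternatives, the ESC pair as 1 library among them), Cldn9 was 26.9 times less by counts (interval 8.89 to 133) and Cldn5 at least 13.7-fold lower. The NPC libraries differed in Cldn1 (33.8 and 4.42 CPM) and Cldn15 (30.1 and 8.25 CPM), and without NPC 1 their changes were 1.85 and 2.24. In Phc1-KO 0 of these 8 passed by edgeR, DESeq2 or limma-voom; 2 of them, Cldn9 and Cldn10, were lower at an unadjusted p under 0.05, and 2 passed as lower in the fit of only the groups compared and without NPC 1 or NPC 2.

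Epithelial regulators and surface genes fell as a group in NPC, 17 of 17 tested (median -5.27, also with genes at 0 counts set to their bound). Elf3 was at least 166-fold and Ovol2 at least 45.3-fold lower, both epithelial transcription factors, and Ap1m2, an epithelial sorting adaptor, 842 times less by counts (interval 233 to 6960). In Phc1-KO, 6 of the 17 fell, among them the epithelial transcription factors Grhl3 (-1.81) and Elf3 (-1.79). Of 10 tested transcription factors known for epithelial-mesenchymal transition, 6 rose and 1 fell in NPC (median 1.96): Prrx1 by 3.21, Snai2 by 2.94 and Zeb2 by 2.87 led the rise, and Snai3 was 174 times less by counts (interval 30.9 to 6923). Prrx1 stood at 105 and 380 CPM in NPC, and its change was 3.86 without NPC 1 and 2.01 without NPC 2; that of Snai2 was 2.34 without NPC 2. In Phc1-KO, Twist2 rose by 2.94 and Prrx1 by 2.35, the latter not past the threshold by limma-voom. Prrx1, Snai2 and Twist2 are also genes of mesenchymal cells, and the 12 fibroblast genes summed to 652 to 671 CPM in ESC, 1446 to 1478 CPM in Phc1-KO and 7218 to 11469 CPM in NPC; their part in these changes was not tested. Zeb1 was listed at 0 in all 6 libraries and was not tested. Whether its RNA was absent or its reads were not counted cannot be told from these counts. With the ESC pair as 1 library, none of these lists kept a call in Phc1-KO against ESC. The calls of all list genes named for that comparison were also lost without ESC 1 and without ESC 2, and all but that of Tjp3 without Phc1-KO 2.

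**Figure D4:**
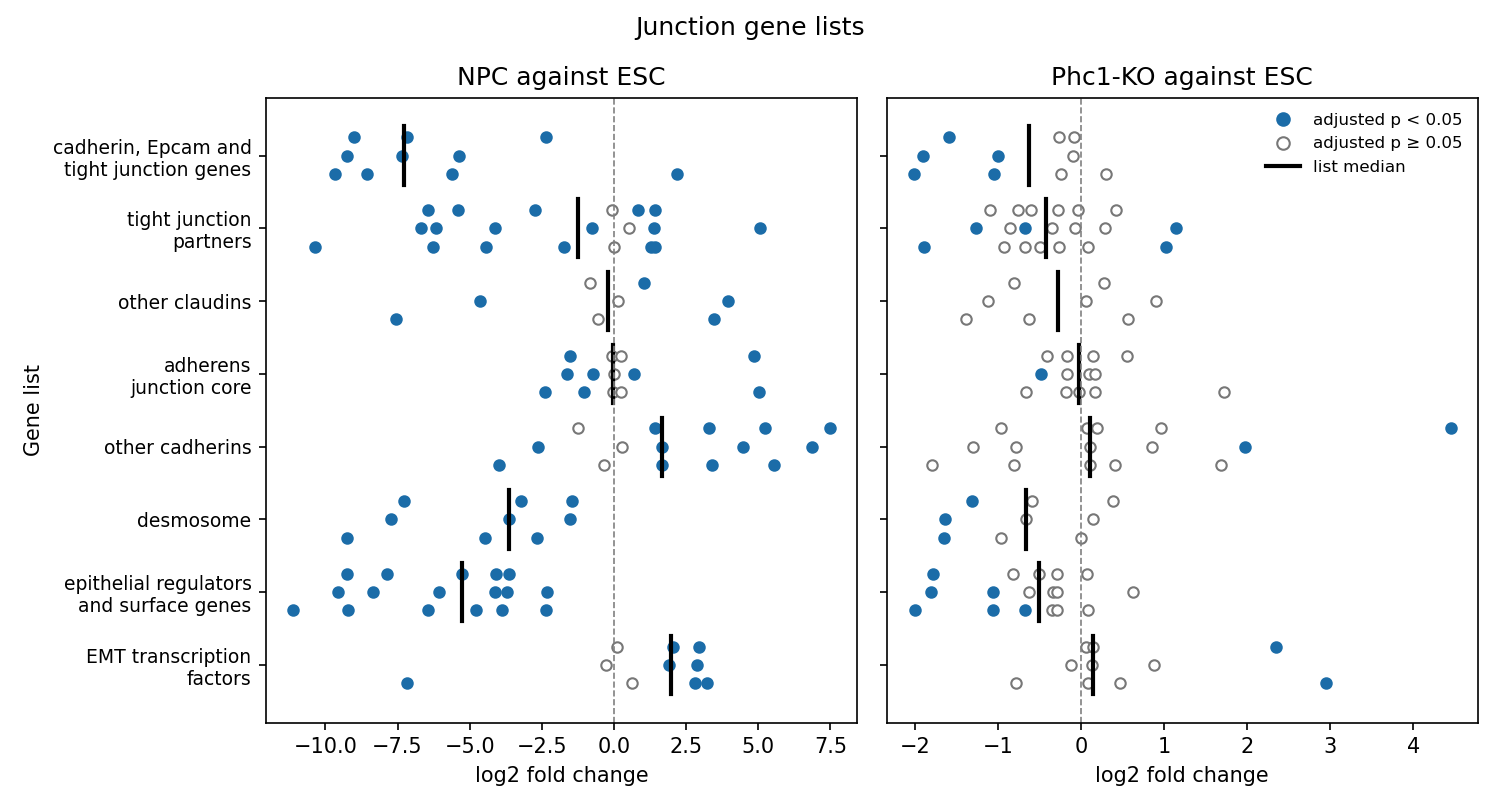
Log2 fold change of each tested gene of the 8 junction lists in NPC against ESC and in Phc1-KO against ESC (points; filled, adjusted p under 0.05; bars, list median). The medians of the desmosome, epithelial regulator and 10-gene lists lie to the left of 0 in NPC (-3.65, -5.27 and -7.26). Those of other cadherins and EMT factors lie to the right (1.68 and 1.96). Some genes of the 10-gene, other cadherin and EMT lists lie on the opposite side of 0 from their median. Points of genes with 3 or fewer counts in a group are fitted values that depend on the model's prior count.

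The genes whose profile over the 6 libraries was nearest to that of Cdh1 (Euclidean distance of centred log2(CPM + 1)) were Dppa5a (0.459), Lin28a (0.641), Tdgf1 (0.767), Trh (0.962) and Pou5f1 (1.11). Those nearest to Cdh2 were Syt11 (0.150), Trio (0.181), Syde1 (0.185), Wipf1 (0.212) and Arhgap42 (0.219). The first group is high in ESC and Phc1-KO and near 0 in NPC, the second highest in NPC, and these distances are a description over libraries of 3 groups, with no test.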

How the data were processed

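The authors deposited whole-number read counts for Ensembl genes, with no normalization. Per the submitters' processing notes, STAR, HTSeq and mm9 were used; the sources used here give no version, annotation release or strand setting. Per the labels, Ribo-Zero Gold depletion came before TruSeq preparation, and the libraries were read as single ends on a HiSeq2000. The 5 tallies at the end of each table (reads with no gene) stayed out of library sizes and tests; they made up 68.5% to 73.8% of all tallied reads. Symbols came from GENCODE M1, which named 37205 of the identifiers and left 415 unnamed.

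All 6 libraries were fitted together with edgeR 4.0.16 (quasi-likelihood F test, TMM scaling, R 4.3.3), with 3 residual degrees of freedom, since 2 libraries a group give little information on the spread alone. Genes were kept by filterByExpr if they reached about 10 counts in at least 2 libraries, the group size, and 15 counts in total. Benjamini-Hochberg adjustment ran over the 17489 tested genes within each of 3 comparisons, at a threshold of 0.05. Each SE of a log2 change is its absolute value divided by the square root of the test's F value. The intervals of log2 changes are built from these SEs, and both are approximate. Levels per length are CPM per kilobase of merged exons. A group with 0 counts was set to a floor of 3 counts over the group; intervals and floors cover counting error only, since the reads carry no molecular identifiers. Code was tested on simulated data.

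The 10 genes and all lists were chosen with earlier results of these data known. Named from each list were the 3 largest changes in each direction that passed, and all that passed in a direction where there were 5 or fewer, with a mean of at least 1 CPM. List genes are named for the comparisons with ESC only, and 1 of them is not reported here. Genes named as nearest had a mean of at least 4 CPM, and the 5 nearest are given. The 16 alternatives were DESeq2 1.42.0, limma-voom (limma 3.58.1), 3 other scalings, 2 other filters, a fit of only the groups compared, a replicate block, the ESC pair as 1 library, and each of the 6 libraries left out.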

Additional observations from a re-analysis of the deposited data

How the results depend on the processing

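All calls for the 10 genes in NPC against ESC and in Phc1-KO against NPC kept their direction and their side of the threshold under the 16 alternatives. In Phc1-KO against ESC the count of the 10 genes that were lower was 5, fell to 0 with the ESC pair as 1 library, and ranged from 0 to 5 when each library was left out; it was 5 in the other settings. The count over all genes there was 858 higher and 1006 lower, against 1375 higher by DESeq2, 1791 and 2108 with only the groups compared, 62 and 83 with the ESC pair as 1 library, and 32 to 1757 and 57 to 1958 without single libraries. Without single libraries the log2 change in Phc1-KO against ESC ranged from -0.24 to 0.043 for Cdh1, turning sign without Phc1-KO 2, and from -0.20 to 0.029 for F11r, turning sign without Phc1-KO 1, neither passing; the cause was not tested. Folds of Cldn3 and Cldn6 in NPC rest on 1 and 2 counts, and without NPC 1 or NPC 2 their log2 change was -9.65 or -6.29 and -8.75 or -13.01, fitted values that depend on the prior count where the NPC library left holds 0 counts. Upper-quartile scaling moved the median of all genes to -0.11 in NPC against ESC. The Cldn10 call in NPC was lost in 11 alternatives and the Cldn1 call by limma-voom (adjusted p = 0.0534).

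No pairing by replicate number was seen: deviations of same-numbered libraries correlated at 0.0174 (ESC and NPC), 0.0202 (ESC and Phc1-KO) and -0.0207 (NPC and Phc1-KO). The ESC libraries differ by little more than counting noise, so the correlations with ESC could hardly have shown a pairing. With a replicate block, the 10 genes gave 9 lower and 1 higher in NPC against ESC, 5 lower and 0 higher in Phc1-KO against ESC, and 9 higher and 1 lower in Phc1-KO against NPC. The block ended the calls of Mllt4, Tjp1 and Ildr2 in Phc1-KO against ESC and of Cldn10 in NPC against ESC, among the genes named.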
